A study of Mus musculus with 4 samples.

Results

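The Rab GTPases were taken as the genes of the count table whose symbol was Rab followed by a number and at most a letter and a digit, with pseudogene names left out. There were 59 of them among 49315 genes, and 49 of them were among the 14840 genes that reached 1 CPM, the reads scaled to a common library size with TMM factors, in at least 1 library. RNA had been sequenced from group 2 innate lymphoid cells (ILC2s) of mouse lung in 4 groups of 1 library each. PBS-WT and BLEO-WT came from WT mice given PBS or bleomycin, and PBS-HPS1 and BLEO-HPS1 from Hps1-/- mice given the same agents. The mice were on a C57BL/6 background, the cells were sorted as Lineage-Thy1.2+ICOS+T1/ST2+ and all were cultured with IL-2 before lysis, in PBS and bleomycin groups alike. The number of mice behind a library, their age and the schedule of bleomycin are not given for these libraries in the sources used here. With 1 library per group there was no replicate check, so every ratio compares 2 libraries, no p-value is given, and the 95% intervals cover counting error only.

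Rab GTPases are small proteins that switch between a GDP-bound and a GTP-bound form and, in the latter, recruit effectors that move, tether and fuse vesicles. Each compartment carries its own members, and guanine nucleotide exchange factors switch them on. BLOC-3, the complex of the Hps1 and Hps4 proteins, is the exchange factor of Rab32 and Rab38, which carry cargo to melanosomes, platelet dense granules and other lysosome-related organelles. Loss of either subunit causes Hermansky-Pudlak syndrome, whose features include albinism, bleeding and, in some forms, lung fibrosis.

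The coding sequences are shown around the second switch of the GTPase fold because one codon there sets the BLOC-3 substrates and their nearest relative apart from nearly all other members. In each coding sequence of GENCODE M21 (build GRCm38) the reading frame was searched for a tryptophan and an aspartate codon, 1 codon of any kind, an alanine and a glycine codon, 1 codon of any kind and a glutamate codon. This order of codons was found in 55 of the 59 members, and not in *Rab7b*, *Rab28*, *Rab40b* and *Rab40c*. The first codon of any kind, in capitals below, was ACN, a threonine codon, in 52 members. It was ATT or ATC, which encode isoleucine, in 3 members, *Rab32*, *Rab38* and *Rab29*. The windows hold 57 bases, and the intron they span is left out.

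Rab32: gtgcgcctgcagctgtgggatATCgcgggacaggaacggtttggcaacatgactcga
Rab38: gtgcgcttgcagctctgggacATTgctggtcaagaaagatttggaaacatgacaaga
Rab29: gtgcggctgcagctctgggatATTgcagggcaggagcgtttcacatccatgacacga
Rab27a: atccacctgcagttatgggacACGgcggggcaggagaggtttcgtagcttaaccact
Rab44: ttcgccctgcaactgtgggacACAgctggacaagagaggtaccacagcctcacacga

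The *Rab32* window ran over exons 1 and 2 on the minus strand, chr10:10550928-10557872. That of *Rab38* ran over exons 1 and 2 on the plus strand, chr7:88430576-88450509, and that of *Rab29* over exons 3 and 4 on the plus strand, chr1:131869977-131870708. The *Rab27a* window lay on chr9:73082450-73084949 (plus strand, exons 4 and 5) and the *Rab44* window on chr17:29144533-29145265 (plus strand, exons 10 and 11). Base by base, *Rab32* and *Rab38* shared 45 of 57 positions, *Rab32* and *Rab29* 43, and *Rab38* and *Rab29* 42. *Rab44* encodes a long Rab with a large region ahead of the GTPase fold, and its coding sequence had 2919 bases, whereas those of the other members had 582 to 885.

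Some properties of the libraries touch the results. Totals ran from 72513619 to 87638154 reads, so 3 reads stood for 0.0303 to 0.0475 CPM, and the libraries were made from 22405 to 128647 cells, the most in BLEO-HPS1. Rab genes took 0.310% to 0.398% of the reads. *Hps1*, the gene disrupted in the mutant, was at 38.3, 16.6, 48.4 and 21.3 CPM in PBS-WT and PBS-HPS1, then BLEO-WT and BLEO-HPS1, the order kept for every set of 4 values, so reads remained in the mutant libraries but were fewer with either agent. Markers of ILC2s were present, with *Gata3* at 25.1 to 39.1 CPM and *Il7r* at 76.9 to 205, while *Ptgdr2* stayed under 1 CPM. Markers of other cells were present as well, although every library is labelled ILC2. The lineage gate removed cells positive for Ly6G, Ly6C, Ly76, CD45R/B220, CD11b or CD3, after enrichment by negative selection, and the study describes the sort as nearly pure. The 11 macrophage markers summed to 2493, 1874, 7045 and 7999 CPM, above the 11 ILC2 markers, which summed to 761, 690, 566 and 794. *Thy1* alone held 306.5, 205.8, 223.6 and 550.7 CPM of the ILC2 sum, so its order of libraries leaned on 1 gene. From PBS-HPS1 to BLEO-HPS1, 3 of 10 ILC2 markers compared were 2-fold lower, against 19.6% of all genes. They were *Rora* (log2 ratio -2.57), *Il7r* (-1.42) and *Icos* (-1.27). Another 3, *Klrg1*, *Nmur1* and *Thy1*, were 2-fold higher, against 26.2%. None of the marker genes of the 10 lists was at 0 reads in any library. Fewer cells of a type and less RNA per cell cannot be told apart in such bulk libraries. The ratios also followed base composition. Over 14813 genes with an annotated transcript, log2 ratios of BLEO-HPS1 to BLEO-WT had a Spearman's rho of 0.537 with transcript GC content, and ratios are therefore also given after a loess fit on GC content and exonic length was subtracted, called the correction here. After the correction the ratios of *Rora*, *Il7r* and *Icos* from PBS-HPS1 to BLEO-HPS1 were -0.86, -0.15 and -0.50.

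Levels of Rab genes spanned more than 3 orders of magnitude per kilobase of exon, and a few members of the endocytic and early secretory pathways stood at the top. Levels between genes are compared here as RPKM, the CPM divided by the kilobases of exon. *Rab5c*, which acts in fusion of early endosomes, was first with 142, 108, 185 and 239 RPKM. *Rab7*, which directs late endosomes to lysosomes, had 140, 110, 219 and 161 RPKM. *Rab1b*, which acts in transport from the ER to the Golgi, had 75.3, 50.8, 100.4 and 166 RPKM. *Rab5c* and *Rab7* could not be placed in an order, since either was higher depending on the library, and *Rab1b* overtook *Rab7* in BLEO-HPS1 alone.

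Below them came *Rab2a* with 44.8 to 63.1 RPKM over the 4 libraries and *Rab1* with 28.7 to 56.4, both of the early secretory pathway. *Rab10*, *Rab35*, *Rab8b*, *Rab8a* and *Rab32* followed within 40.9 to 37.1 RPKM on average, and their ranges over the libraries overlapped, so that their order is not fixed by these data. By the mean over the libraries, the top member among secretory granule Rabs was *Rab3d* at 13.8 to 35.4 RPKM, although it was first in the bleomycin libraries alone. *Rab27a*, at 22.5 and 16.9 RPKM, was above it (20.3 and 13.8) in both PBS libraries, as was *Rab44* in PBS-HPS1 at 23.5 RPKM. *Rab35* was first by the mean among recycling endosome Rabs at 29.6 to 52.0 RPKM. Among Rabs of transport to the plasma membrane *Rab10* had 47.4, 40.6, 45.7 and 29.8 RPKM, *Rab8b* 56.6, 44.6, 40.5 and 18.8, and *Rab8a* 36.8, 26.3, 37.1 and 53.7, so that which was highest depended on the library. *Rab40c* was first among the unplaced members at 5.69 to 11.3 RPKM. At the other end, 10 members stayed under 1 CPM in every library. They were *Rab3b*, *Rab3c*, *Rab9b*, *Rab17*, *Rab25*, *Rab26*, *Rab33a*, *Rab39b*, *Rab40b* and *Rab42*, several of them known from neurons or polarised epithelium. *Rab9b* alone had libraries with no read, with 5 and 4 reads in the PBS libraries and 0 in both bleomycin libraries, where 3 reads would be 0.0383 and 0.0475 CPM.

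**Figure D1:**
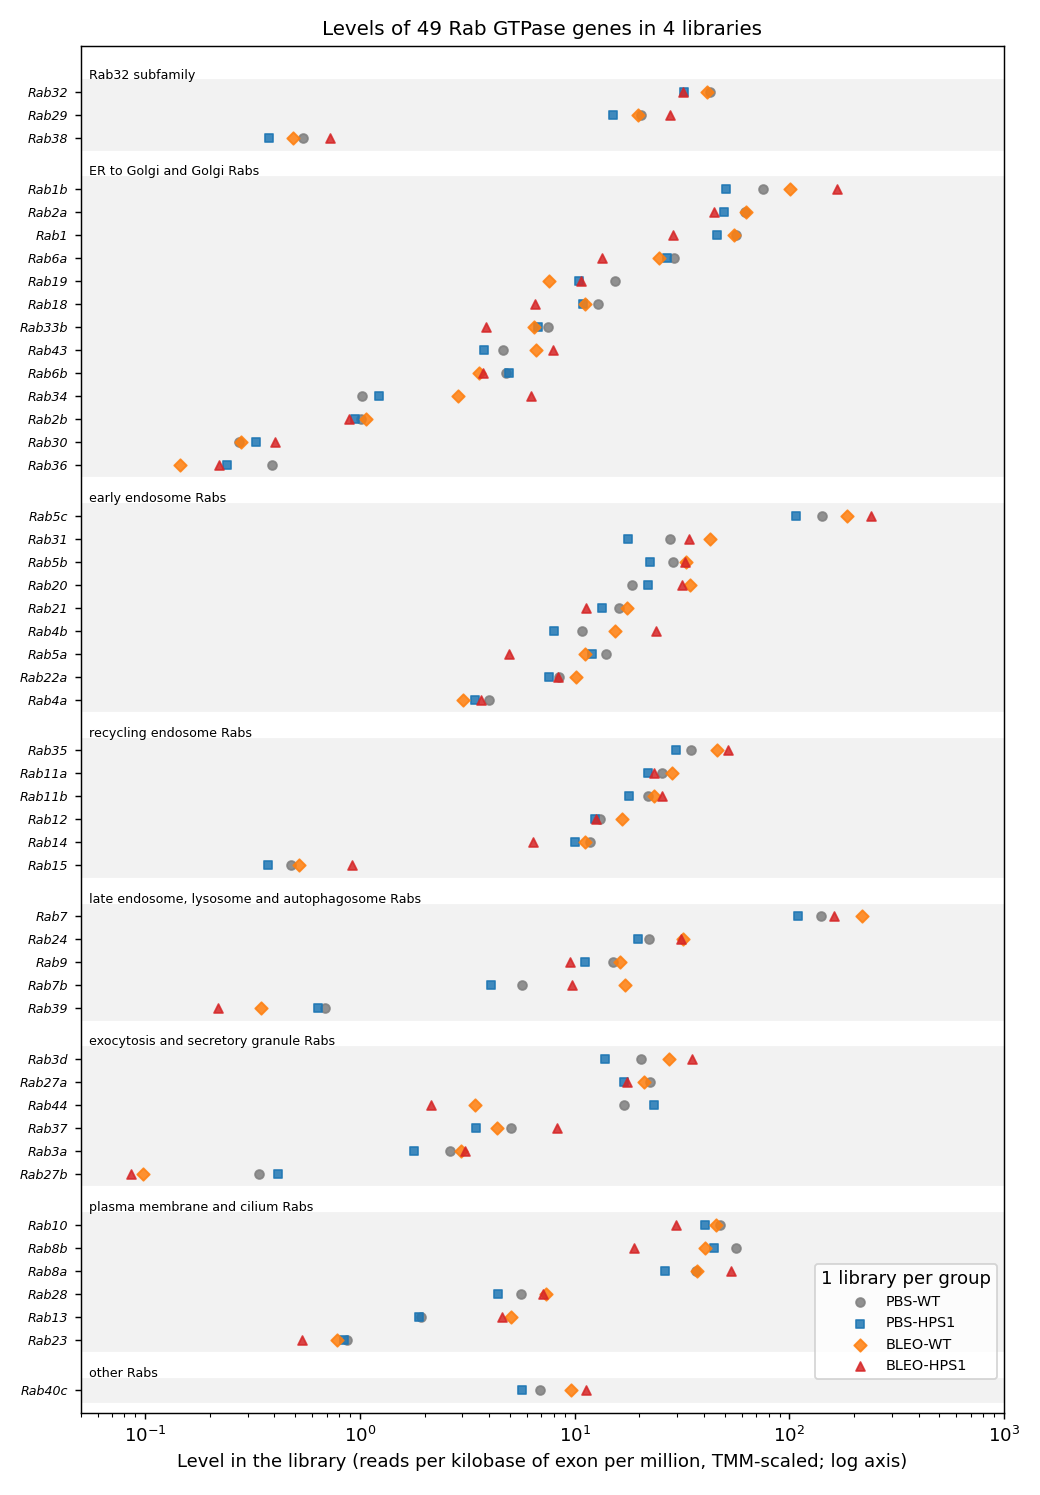
Level of each of the 49 Rab genes that reached 1 CPM, in RPKM on a log axis, with 1 symbol per library and genes grouped by role. The 2 highest genes, Rab5c and Rab7, lie above 100 RPKM in every library, Rab32 lies near 40 and Rab38 under 1, and the symbols of Rab44, Rab27b, Rab34 and Rab7b are spread widest.

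The level of most members was similar between libraries. The ratio of a member's highest to its lowest library had a median of 1.93 over the 49 members, against 2.15 over all 14840 genes. In none of the 4 comparisons did 30 of the 49 members differ by 2-fold or more, and the other 19, or 38.8%, did in at least 1, against 52.3% of all genes.

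*Rab32*, the more abundant substrate of BLOC-3, was detected at nearly the same level with either agent and lower in the Hps1-/- libraries by less than 2-fold. It had 99.8, 75.8, 96.6 and 74.9 CPM. Both mutant libraries were thus below both WT libraries. The log2 ratio between Hps1-/- and WT was -0.40 with PBS (95% interval -0.44 to -0.35) and -0.37 with bleomycin (-0.42 to -0.31), and it was -0.30 and -0.38 after the correction. Over all genes the median log2 ratio was -0.19 with PBS and -0.04 with bleomycin, so part of the shift with PBS was shared by most genes. The bleomycin to PBS log2 ratio was -0.05 in WT and -0.02 in Hps1-/- libraries, and the difference between these was 0.03 (-0.04 to 0.10). These values rested on the scaling. With total counts the ratio between genotypes was -0.15 with PBS and -0.50 with bleomycin, and the bleomycin to PBS ratio -0.31 in WT and -0.66 in Hps1-/- libraries, all short of 2-fold. The gene lies on chr10:10545002-10558265.

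*Rab38*, the other substrate, was at the edge of detection. It had 67, 59, 60 and 72 reads, or 0.859, 0.596, 0.765 and 1.14 CPM, and passed the filter only through BLEO-HPS1. Its log2 ratio between Hps1-/- and WT was -0.51 with PBS (-1.06 to 0.00) and 0.56 with bleomycin (0.06 to 1.09), intervals that are too wide to place it past or short of 2-fold in either. The ratio of bleomycin to PBS was -0.16 (-0.69 to 0.36) in WT and 0.91 (0.42 to 1.46) in Hps1-/- libraries. Per kilobase of exon *Rab32* exceeded *Rab38* 78.3-, 85.8-, 85.1- and 44.3-fold. *Rab38* lies on chr7:88430273-88491572, and known sites of its expression are melanocytes and alveolar type II cells, whose marker *Sftpc* was at 816, 538, 343 and 185 CPM. *Sftpc* was lowest in BLEO-HPS1, where *Rab38* was highest. Its part in the *Rab38* reads was not tested.

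*Rab29*, which shares the isoleucine codon and recruits the kinase Lrrk2 to membranes, had 29.9, 22.0, 28.9 and 40.6 CPM. It was highest in BLEO-HPS1 and lowest in PBS-HPS1, with the WT libraries alike in between. The log2 ratio between Hps1-/- and WT was -0.44 with PBS (-0.52 to -0.35) and 0.49 with bleomycin (0.41 to 0.57), and the latter was 0.15 after the correction. *Rab27a*, which with its effectors docks lytic granules and melanosomes at the plasma membrane, had 87.1, 65.7, 81.4 and 68.0 CPM. Like *Rab32* it was lower in both Hps1-/- libraries, with log2 ratios of -0.41 (-0.46 to -0.36) with PBS and -0.26 (-0.31 to -0.20) with bleomycin, but after the correction the latter was -0.06, whereas that of *Rab32* remained at -0.38. Neither gene differed by 2-fold in any of the 4 comparisons.

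**Figure D2:**
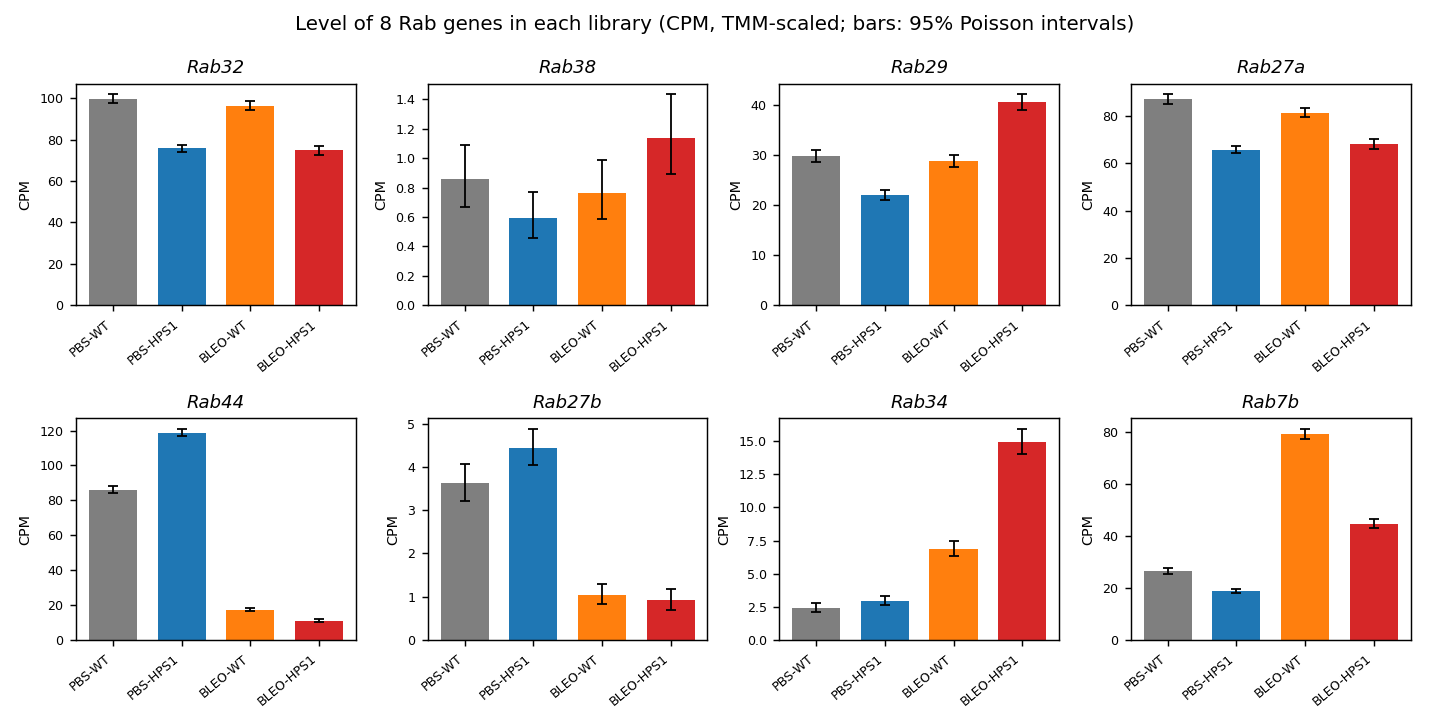
CPM of 8 Rab genes in each of the 4 libraries, with bars from 0 and 95% Poisson intervals for counting error, and a linear axis of its own for each gene. Rab32 and Rab27a stand lower in both HPS1 libraries, Rab38 stays near 1 CPM, Rab44 and Rab27b are low and Rab34 and Rab7b high in both bleomycin libraries.

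The subunits and partners of BLOC-3 gave the following levels. *Hps4* had 32.7, 27.5, 37.0 and 38.5 CPM, with log2 ratios of Hps1-/- to WT of -0.25 with PBS and 0.06 with bleomycin, while *Hps1* stood at -1.20 (-0.96 with total counts) and -1.18. Of 13 genes listed as partners of Rab32 and Rab38, 0 differed by 2-fold between the PBS libraries, where 5.27% of all genes did. With bleomycin 1 of the 13, or 7.69%, was 2-fold lower in Hps1-/-, where 10.3% of all genes were. That gene was *Acod1*, whose product makes itaconate in macrophages and binds Rab32 during infection. It had 58.1, 56.4, 38.2 and 6.95 CPM, and only BLEO-HPS1 stood apart, with a log2 ratio to BLEO-WT of -2.46, or -2.43 after the correction. *Lrrk2* had 42.0, 36.7, 22.8 and 12.5 CPM, with a log2 ratio of -0.86 there, and *Vamp7*, a SNARE carried to melanosomes with the Rab32 effector Ankrd27, had 19.0, 16.0, 12.1 and 7.23 CPM, with a ratio of -0.74. With PBS the largest ratios of the list were 0.42 for *Sgsm2*, which inactivates Rab32 and Rab38, -0.33 for *Vps41* and -0.30 for *Vps33a*, both subunits of the HOPS tether. *Ankrd27*, an effector of Rab32 and Rab38, had 37.2, 36.5, 43.2 and 37.7 CPM and hardly differed.

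The first comparison across all members asked how loss of Hps1 without bleomycin was reflected. In PBS-HPS1 against PBS-WT, 0 of 49 Rab genes differed by 2-fold, while 5.27% of all genes did (2.16% higher and 3.11% lower). The median log2 ratio of the Rab genes was -0.28 and that of all genes -0.19. The largest differences were -0.69 for *Rab36* and 0.46 for *Rab44*. Ratios were below 0 in 43 members and above 0 in 6, and that split rested on the scaling, since with total counts it was 27 and 22, with a median of -0.04 for Rab genes and 0.06 for all genes. Within roles, medians ran from -0.23 for ER and Golgi Rabs to -0.47 for those of exocytosis and secretory granules.

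With bleomycin, 3 of 49 Rab genes differed by 2-fold between genotypes, 1 higher and 2 lower in the Hps1-/- library, where 17% of all genes did (6.72% higher and 10.3% lower). Medians were -0.13 for Rab genes and -0.04 for all genes. *Rab34*, which acts in ciliogenesis and in positioning of lysosomes, had 2.44, 2.93, 6.86 and 14.9 CPM. It was highest in BLEO-HPS1, with a log2 ratio to BLEO-WT of 1.12 (0.97 to 1.28). *Rab5a*, a paralogue of *Rab5c* on early endosomes, had 74.1, 63.3, 58.8 and 26.0 CPM, and *Rab8b*, which acts in transport to the plasma membrane, had 268, 211, 192 and 89.1 CPM. Both were lowest in BLEO-HPS1, with log2 ratios to BLEO-WT of -1.18 (-1.26 to -1.10) and -1.10 (-1.15 to -1.06). After the correction the 3 ratios were 0.54, -0.85 and -0.48 and none was past 2-fold. With total counts 0 Rab genes were 2-fold higher and 5 lower, without the share of all genes under that scaling beside them. The fibroblast markers, which summed to 581, 823, 1307 and 5104 CPM with 11 of 12 past 2-fold between the bleomycin libraries, had the same order of libraries as *Rab34*, and their part in its level was not tested. By role, all 5 Rabs of late endosomes, lysosomes and autophagosomes that were compared had ratios below 0 with a median of -0.65, with *Rab7b* at -0.82, *Rab9* at -0.76, *Rab39* at -0.65 (-1.25 to -0.11), *Rab7* at -0.44 and *Rab24* at -0.03 (-0.09 to 0.03), none of them 2-fold lower. Ratios were also below 0 in 29 of the 49 Rab genes and 7747 of the 14840 genes.

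In WT libraries, 7 of 49 Rab genes differed by 2-fold between bleomycin and PBS, 3 higher and 4 lower, where 13.5% of all genes did (5.28% higher and 8.22% lower). With total counts the Rab genes were 3 and 6, and the share of all genes under that scaling is not given here. Medians were 0.06 for Rab genes and 0.09 for all genes. The largest difference was that of *Rab44*, a Rab of granules in mast cells and other leukocytes, which lies on chr17:29114145-29148980. It had 86.2, 119, 17.3 and 10.9 CPM, so both bleomycin libraries were well below both PBS libraries. The bleomycin to PBS log2 ratio was -2.31 (-2.40 to -2.23) in WT and -3.45 (-3.56 to -3.34) in Hps1-/- libraries, and -2.48 and -3.90 after the correction. *Rab27b*, a paralogue of *Rab27a* that also acts in granule release, had 3.63, 4.44, 1.05 and 0.918 CPM. It too was lower in both bleomycin libraries, with log2 ratios of -1.77 (-2.17 to -1.44) and -2.24 (-2.70 to -1.88), but after the correction these were -0.94 and -0.37, short of 2-fold.

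Part of the mast cell and basophil markers were lower in the bleomycin libraries along with these 2 genes. Over the 9 markers of the list the sum was 79.2, 61.3, 45.3 and 43.2 CPM, and of the 8 compared 4 were 2-fold lower with bleomycin in WT and 6 in Hps1-/-. Of all genes, 8.22% were 2-fold lower with bleomycin in WT and 19.6% in Hps1-/-. *Ms4a2*, a chain of the IgE receptor, had 10.2, 6.37, 0.408 and 0.190 CPM, and *Mcpt8*, a protease of basophils, had 11.6, 6.27, 1.49 and 1.14 CPM. *Cpa3* and *Fcer1a* were the others 2-fold lower in WT, at -2.14 and -2.83. The list did not move as a whole. *Tpsb2*, *Cma1* and *Mcpt4* had bleomycin to PBS log2 ratios of 0.08, -0.20 and -0.40 in WT and of -1.40, 0.27 and -1.04 in Hps1-/- libraries. *Kit* stayed at 31.2 to 35.2 CPM, and *Tpsab1* was under 1 CPM throughout. *Rab44* was higher in PBS-HPS1 than in PBS-WT, with a log2 ratio of 0.46, whereas *Ms4a2* and *Mcpt8* were lower there, at -0.68 and -0.88. The neutrophil markers summed to 1404, 409, 815 and 359 CPM, which is not the order of *Rab44*. The part of these cells in the level of *Rab44* was not tested.

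The other members past 2-fold in WT libraries were higher in *Rab7b*, *Rab13* and *Rab34* and lower in *Rab19* and *Rab36*. *Rab7b*, which acts between late endosomes and the trans-Golgi in myeloid cells, had 26.4, 18.9, 79.4 and 44.9 CPM. It was higher in both bleomycin libraries, with log2 ratios of 1.59 (1.52 to 1.66) in WT and 1.25 (1.16 to 1.33) in Hps1-/-, and 1.59 and 1.35 after the correction. Macrophage markers were higher in the same libraries, 6 of 11 by 2-fold in WT and 7 of 11 in Hps1-/-, against 5.28% and 26.2% of all genes. Among these markers *C1qa* had 143, 73.2, 1391 and 2047 CPM and *Msr1* 26.5, 17.6, 98.7 and 51.4 CPM. The list did not move as a whole, since in Hps1-/- libraries *Mertk* (-1.55) and *Mrc1* (-1.23) were 2-fold lower with bleomycin and *Marco* stood at -0.60. Their part in the level of *Rab7b* was not tested. *Rab13*, which acts at tight junctions, had 4.41, 4.32, 11.6 and 10.6 CPM, with log2 ratios of 1.39 (1.21 to 1.58) and 1.29 (1.12 to 1.47). *Rab34* had log2 ratios of 1.48 (1.25 to 1.74) in WT and 2.34 (2.16 to 2.55) in Hps1-/-. These 3 genes were thus at least 2-fold higher with bleomycin in either genotype, except that with total counts *Rab13* (0.65) and *Rab7b* (0.60) fell short in Hps1-/-, as did *Rab13* after the correction (0.95). *Rab19*, a Golgi Rab, had 24.3, 16.5, 12.0 and 16.8 CPM, and *Rab36*, another Golgi Rab, had 188, 147, 70 and 86 reads. Their log2 ratios were -1.02 (-1.13 to -0.91) and -1.41 (-1.85 to -1.03) in WT and 0.03 and -0.12 in Hps1-/- libraries.

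In Hps1-/- libraries, 17 of 49 Rab genes differed by 2-fold between bleomycin and PBS, 11 higher and 6 lower, where 45.9% of all genes did (26.2% higher and 19.6% lower). Medians were 0.14 for Rab genes and 0.25 for all genes. With total counts the split became 2 higher and 14 lower, with medians of -0.54 for Rab genes and -0.43 for all genes, so how many members passed 2-fold followed the scaling, although the 11 higher members kept ratios above 0. Under total counts *Rab34* and *Rab1b* remained at least 2-fold higher. The share of all genes past 2-fold under that scaling is not given here. *Rab1b* had 171, 115, 228 and 378 CPM and a log2 ratio of 1.71 (1.68 to 1.74), or 0.82 after the correction. Beside *Rab1b*, *Rab34*, *Rab13* and *Rab7b*, the higher members were *Rab4b* at 1.58, *Rab3d* at 1.35, *Rab15* at 1.29, *Rab37* at 1.25, *Rab5c* at 1.15, *Rab43* at 1.08 and *Rab8a* at 1.03. The ER and Golgi Rabs held 3 of these 11, and the others belonged to every compartment listed here but the *Rab32* subfamily. The lower members were *Rab44* and *Rab27b*, given above, *Rab39* of phagosomes at -1.51, *Rab5a* at -1.28, *Rab8b* at -1.24 and *Rab6a* of the Golgi at -1.01. *Rab6a* shares 708 bases with the gene *Mrpl48* on the opposite strand, which had 1953 to 3267 reads. *Rab43* shares 4164 bases with *Gm45140* (32 to 65 reads) and *Rab4b* 1280 bases with *Gm21983* (0 to 2 reads), both on the same strand. *Rab24* shares 1258 of its 2015 exonic bases with *Prelid1* on the opposite strand. *Prelid1* had 13950 to 32938 reads, against 3493 to 5069 for *Rab24*. Whether the counting used strand is not given in the sources used here.

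**Figure D3:**
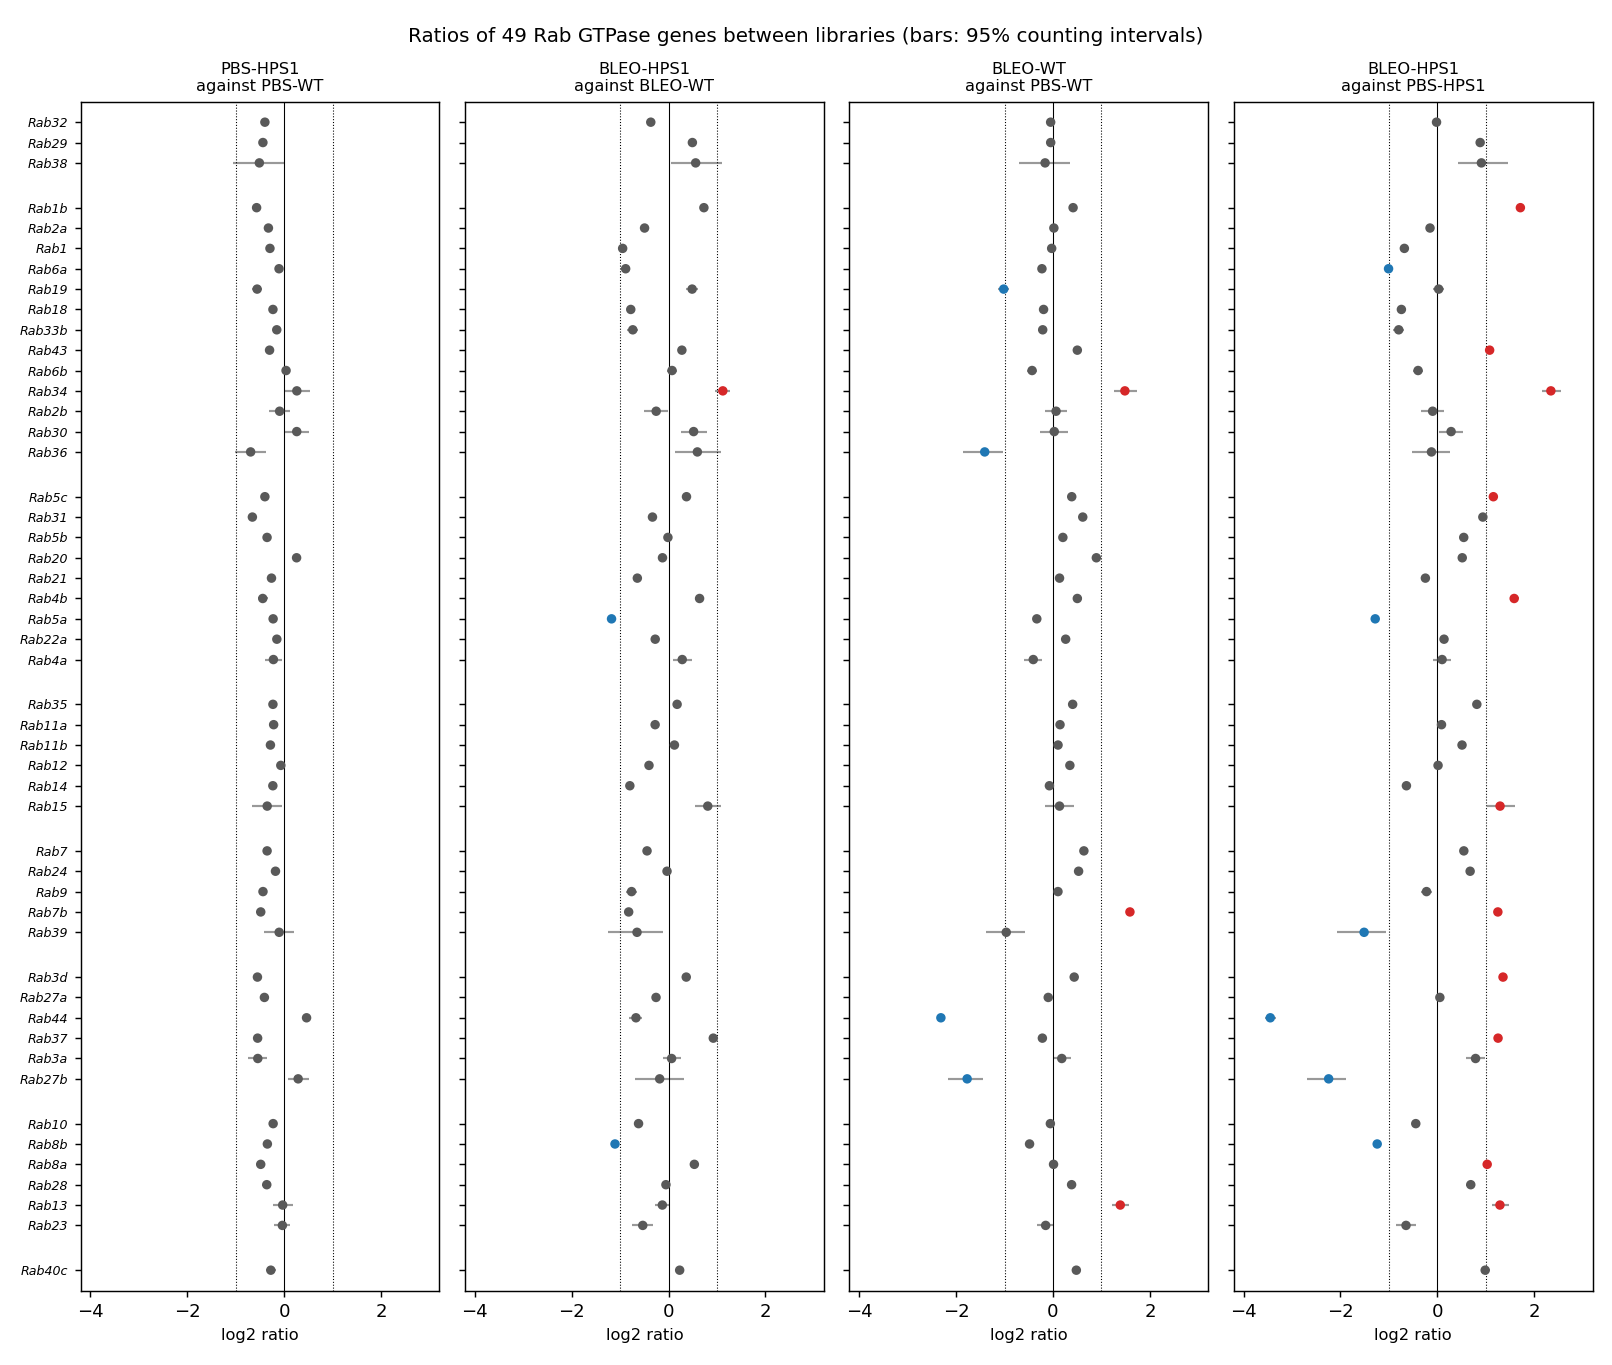
Log2 ratio of each of the 49 Rab genes in the 4 comparisons, 1 library against 1, with 95% counting intervals as bars and dotted lines at 2-fold. Red points are at least 2-fold higher and blue points at least 2-fold lower, 0 in PBS-HPS1 against PBS-WT, 3 in BLEO-HPS1 against BLEO-WT, 7 in BLEO-WT against PBS-WT and 17 in BLEO-HPS1 against PBS-HPS1.

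The bleomycin to PBS log2 ratio was subtracted between genotypes to ask whether it differed. The difference, Hps1-/- minus WT, was at least 1 for 8 of 49 Rab genes and at most -1 for 1, where it was past 1 in size for 27.5% of all genes (16.3% higher and 11.2% lower). The medians were 0.03 and 0.15. The 8 genes were *Rab37* at 1.47, *Rab1b* at 1.30, *Rab36* at 1.29, *Rab15* at 1.16, *Rab4b* at 1.08, *Rab38* at 1.07, *Rab19* at 1.04 and *Rab8a* at 1.02, and the other was *Rab44* at -1.14 (-1.27 to -0.996). With total counts 1 was higher and 6 were lower, and after the correction 5 and 2. The share of all genes under these 2 settings is not given here, so whether the change was particular to Rab genes was not tested. The corrected set was partly another one. *Rab37* (1.38), *Rab36* (1.21), *Rab8a* (1.10) and *Rab44* (-1.42) stayed, and *Rab30* (1.28), *Rab28* (1.21) and *Rab20* (-1.15) came in. *Rab38* (0.90), *Rab15* (0.87), *Rab1b* (0.62), *Rab19* (0.52) and *Rab4b* (0.37) fell short. The interval of *Rab38*, 0.36 to 1.78, was the widest of these, and the comparisons share their libraries with those above. *Rab38* was compared only because it reached 1 CPM in BLEO-HPS1, the library that raises its difference, so its place among the 8 depends on the filter.

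Within the family, the spread of the ratios with bleomycin followed the base composition of the transcripts. GC content ran from 36.8% to 59.5% over the 59 members. Between the Hps1-/- and WT libraries, Spearman's rho of the log2 ratio with GC content over the 49 compared was -0.220 with PBS and 0.605 with bleomycin. Between bleomycin and PBS it was 0.392 in WT and 0.631 in Hps1-/-. Over all genes the values were -0.074, 0.537, 0.432 and 0.562, so the family was like the rest. These are descriptions across genes, which share the same libraries. Of the members past 2-fold in BLEO-HPS1 against PBS-HPS1, the 11 higher had a median GC content of 54.7% (49.1% to 59.5%) and the 6 lower one of 42.9% (37.9% to 56.7%). *Rab44*, at 56.7%, was the member that went against this order. After the correction 8 were past 2-fold there, 7 higher and 1 lower, against 28.2% of all genes (19.4% higher and 8.7% lower), and rho with GC content was -0.078. Over the members compared, rho with exonic length went from -0.320 to 0.238, so a trend with length of the other sign remained. The set of higher members changed, and *Rab44* was the lower one. *Rab34*, *Rab7b*, *Rab8a* and *Rab37* stayed, while *Rab28* (2.41), *Rab30* (2.10) and *Rab11a* (1.31) came in. *Rab3d* (0.97), *Rab13* (0.95), *Rab15* (0.84), *Rab1b* (0.82), *Rab43* (0.69), *Rab4b* (0.65) and *Rab5c* (0.38) fell short of 2-fold. For BLEO-WT against PBS-WT the corrected counts were 4 higher and 3 lower, against 11% of all genes (5.54% higher and 5.48% lower), and for PBS-HPS1 against PBS-WT they were 0, against 5.13% (2.27% higher and 2.86% lower). With bleomycin, *Rab30*, a Golgi Rab with 2.64, 3.17, 2.69 and 3.86 CPM, was the 1 member past 2-fold between genotypes after the correction, at 1.34 from 0.52, against 10.1% of all genes (5.5% higher and 4.56% lower). Its transcript has 38.1% GC, near the low end of the family. It also has 9642 bases of exon, and rho of the members' ratios with exonic length was -0.214 before the correction and 0.278 after it.

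**Figure D4:**
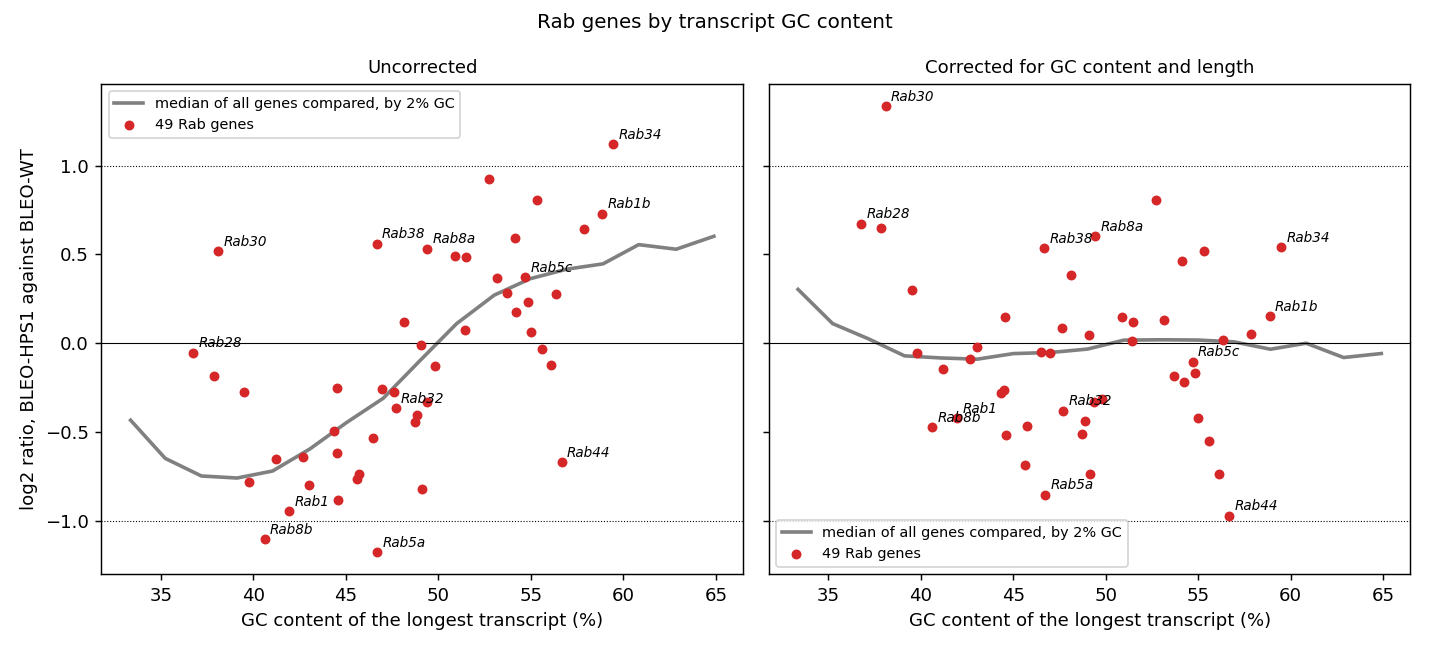
Log2 BLEO-HPS1 to BLEO-WT ratio against transcript GC content in percent for the 49 Rab genes (red) and the median of all genes compared in steps of 2% GC (grey line), before and after the loess correction. The Rab genes rise along the grey line on the left, with rho of 0.605, and lie around 0 on the right, where Rab30 alone is past 2-fold and Rab44 lies at -0.97.

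Paralogous pairs allow the same comparison between genes with nearly the same function, and they followed base composition only in part. The windows around the second switch are shown for the 3 pairs that moved most from BLEO-WT to BLEO-HPS1, since they encode much the same protein with different bases.

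Rab8a: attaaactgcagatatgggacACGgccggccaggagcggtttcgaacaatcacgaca
Rab8b: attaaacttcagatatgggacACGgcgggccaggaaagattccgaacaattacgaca
Rab5c: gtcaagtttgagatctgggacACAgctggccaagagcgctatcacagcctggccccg
Rab5a: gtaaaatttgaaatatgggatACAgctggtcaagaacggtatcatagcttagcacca
Rab1b: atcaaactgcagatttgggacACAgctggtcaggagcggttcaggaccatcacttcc
Rab1: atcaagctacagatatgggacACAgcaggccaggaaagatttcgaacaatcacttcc

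The capitals mark the same codon as above, ACN in all 6. The windows lie on chr8:72168471-72171279 (plus strand, exons 2 and 3) for *Rab8a*, chr9:66860858-66863439 (minus strand, exons 2 and 3) for *Rab8b*, chr11:100718485-100718541 (minus strand, exon 3) for *Rab5c*, chr17:53497568-53497624 (plus strand, exon 3) for *Rab5a*, chr19:5104695-5104847 (minus strand, exons 3 and 4) for *Rab1b* and chr11:20218894-20223125 (plus strand, exons 3 and 4) for *Rab1*, the gene named Rab1a in GENCODE M21. The members of a pair shared 50 of 57 bases for *Rab8a* and *Rab8b*, 44 for *Rab5c* and *Rab5a*, and 45 for *Rab1b* and *Rab1*. At the third base of codons, where changes are often silent, the share of G and C over the whole coding sequence was 70.1% in *Rab8a* and 52.2% in *Rab8b*, 64.1% in *Rab5c* and 31.6% in *Rab5a*, and 68.7% in *Rab1b* and 46.3% in *Rab1*.

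Per kilobase of exon, *Rab8a* had 0.650, 0.591, 0.916 and 2.85 times the level of *Rab8b*, so the order of the pair turned in BLEO-HPS1. *Rab5c* exceeded *Rab5a* 10.1-, 8.96-, 16.6- and 48.5-fold, and *Rab1b* exceeded *Rab1* 1.33-, 1.10-, 1.81- and 5.80-fold. In each of these 3 pairs, which were chosen for their change, the paralogue of higher GC content gained on the other with bleomycin, and more so in BLEO-HPS1. The log2 change of the pair from BLEO-WT to BLEO-HPS1 was 1.64 for *Rab8a* over *Rab8b*, 1.55 for *Rab5c* over *Rab5a* and 1.68 for *Rab1b* over *Rab1*, and after the correction 1.08, 0.75 and 0.58. For *Rab6b* over *Rab6a* it was 0.96, and 0.53 after it. *Rab11b* over *Rab11a*, at 48.1% and 39.5% GC, moved by 0.40, or 0.08 after the correction, *Rab4b* over *Rab4a*, at 57.9% and 53.7%, by 0.36, and *Rab2b* over *Rab2a*, at 44.5% and 44.4%, by 0.24. After the correction *Rab4b* over *Rab4a* stood at 0.24 and *Rab2b* over *Rab2a* at 0.43. Among these pairs the size of the move did not always go with the difference in GC content. *Rab11b* over *Rab11a* moved less than *Rab8a* over *Rab8b*, whose GC contents are 49.4% and 40.6%. In the remaining pairs, too, either the size or the direction of the move did not go with it. *Rab5b*, the higher in GC content, gained 1.16 on *Rab5a* although the 2 are close, at 49.1% and 46.7%, and 0.90 after the correction. *Rab27a* over *Rab27b*, at 47.0% and 37.9%, moved by -0.08, and by -0.70 after it. *Rab32* over *Rab38*, at 47.7% and 46.7%, moved by -0.93, and by -0.91 after the correction, a change that rests on 60 and 72 reads of *Rab38*. *Rab3d* gained 0.30 on *Rab3a*, and 0.55 after the correction, although its GC content is the lower of the pair.

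**Figure D5:**
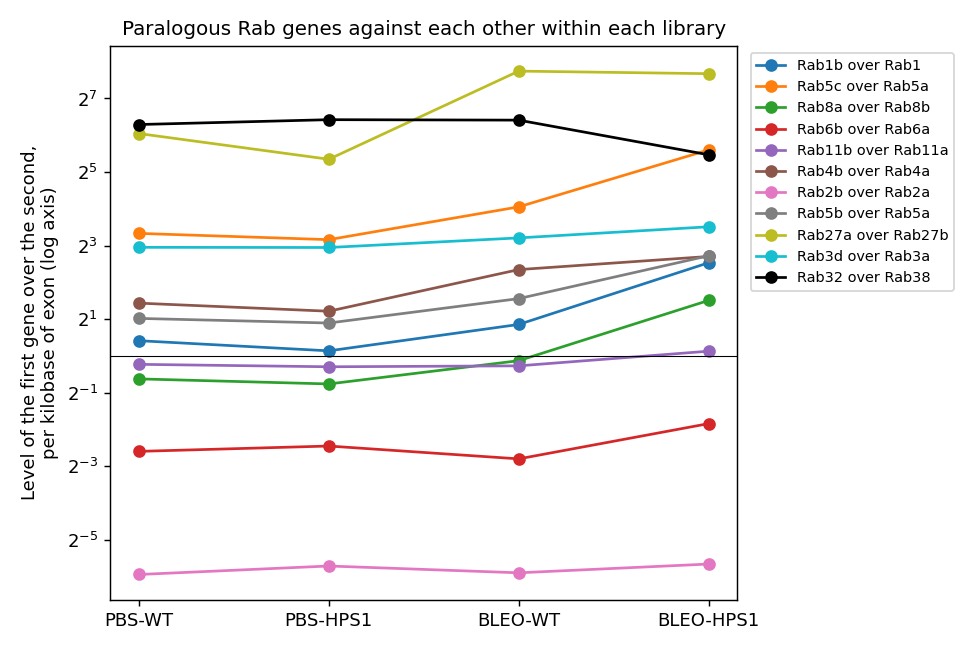
Level of a Rab gene over that of its paralogue, per kilobase of exon, in each of the 4 libraries on a log axis, with lines joining the values of a pair. The pairs Rab1b over Rab1, Rab5c over Rab5a and Rab8a over Rab8b lie highest in BLEO-HPS1, at 5.80, 48.5 and 2.85, Rab2b over Rab2a stays between 0.016 and 0.020, Rab27a over Rab27b is high in both bleomycin libraries, and Rab32 over Rab38 is lowest in BLEO-HPS1 at 44.3.

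The genes that process and regulate Rabs were described in the same way. Of 7 genes for Rab prenylation and membrane extraction, 0 differed by 2-fold between genotypes with either agent, against 5.27% of all genes with PBS and 17% with bleomycin. *Chm*, which presents Rabs to the prenylating enzyme, had 25.8, 25.1, 9.46 and 5.86 CPM, and *Chml*, its paralogue, had 8.63, 7.98, 3.97 and 2.26 CPM. Both were lower with bleomycin, with log2 ratios in WT of -1.44 and -1.12 that became -0.62 and -0.53 after the correction. *Rabac1*, a Rab acceptor of the Golgi, had 217, 174, 286 and 506 CPM, and *Gdi2*, which extracts Rabs from membranes, had 562, 434, 646 and 496 CPM. *Rabggta* (25.2 to 42.9), *Rabggtb* (22.2 to 36.3) and *Rabif* (25.4 to 32.4) had ranges within 2-fold.

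Of 41 exchange factors, 0 differed by 2-fold between the PBS libraries, and 6 were lower and 0 higher in Hps1-/- with bleomycin. Of all genes, 3.11% were lower and 2.16% higher with PBS, and 10.3% lower and 6.72% higher with bleomycin. The lowest ratios were those of *Dennd4c* at -1.41, *Dennd1b* at -1.32 and *Ric1*, a partner in the exchange factor of Rab6, at -1.31. With PBS the largest were -0.72 for *Trappc1* and -0.42 for *Trappc2l*, subunits of TRAPP complexes, and 0.61 for *Als2cl*. Of 38 GTPase activating proteins, which switch Rabs off, 0 differed with PBS, and 5 were lower and 0 higher with bleomycin, led by *Evi5* at -1.37, *Usp6nl* at -1.18 and *Tbc1d15* at -1.13. With PBS the largest, among genes reaching 10 CPM in a library, were -0.65 for *Tbc1d16*, 0.42 for *Sgsm2* and -0.40 for *Tbc1d5*. Below that level, *Sgsm1* had 174 and 400 reads in the PBS libraries, with a ratio of 0.85. Of 39 effectors compared, 3 were lower with PBS and 8 lower with bleomycin in the Hps1-/- library, and 0 were higher in either. *Rabep1*, an effector of Rab5, stood at -1.38 with bleomycin, *Rab11fip2* at -1.36 and *Osbpl1a*, an effector of Rab7, at -1.11, again among genes reaching 10 CPM. The 3 lower with PBS were *Sytl1*, an effector of Rab27, at -1.17, and a pair of low genes, *Rph3a*, an effector of Rab3, at -3.11 with 225 and 31 reads, and *Rims1*, another, at -2.77 with 183 and 32 reads. *Rims1* had 18 and 0 reads in the bleomycin libraries. *Rab11fip4* at -0.57 and *Mical1* at -0.53 were not 2-fold lower with PBS. After the correction 0 exchange factors, 1 activating protein and 2 effectors were 2-fold lower in Hps1-/- with bleomycin, and 1 activating protein was higher, where 4.56% of all genes were lower and 5.5% higher. The medians of the 3 lists with bleomycin were -0.16, -0.17 and -0.17, against -0.04 over all genes.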

How the data were processed

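RNA of 4 libraries was analysed. The authors deposited raw counts of reads for each Ensembl gene, made after a SMARTER mRNA library preparation. The aligner, counting tool, strand setting, genome build and annotation are not given in the sources used here. Groups were taken from the sample labels. Positions, exonic lengths, GC contents and coding sequences came from GENCODE M21 (GRCm38), which held 48970 of the 49315 identifiers. The 174 rows with no gene name held 0.00386% to 0.00722% of counts and were left out. TMM factors (edgeR 4.0.16 in R 4.3.3) were 1.08, 1.27, 0.895 and 0.816 in the order PBS-WT, PBS-HPS1, BLEO-WT, BLEO-HPS1. Log2 CPM took a prior count of 2, so ratios understate changes of low genes. Intervals are exact Clopper-Pearson intervals at 95% of the reads of 2 libraries, except those of a difference of ratios, which use a normal approximation. PCR copies are not independent molecules, so neither the intervals nor the 3-read floor cover more than counting error. Genes with a log2 ratio beyond 1 in either direction counted as differing. The quasi-likelihood test of edgeR was not possible, since no residual degrees of freedom remain. The loess correction used a span of 0.3. The steps were run on simulated Poisson counts, with and without a GC and length bias put into BLEO-HPS1. What gave the trend with GC content in the real libraries was not tested by this.

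Members and gene lists were chosen with earlier results of these data known. Named were the *Rab32* subfamily, *Rab27a*, members past 2-fold in any comparison, the top member of each role, members under the filter, all genes of short lists and the 3 largest ratios of longer ones for each genotype comparison among genes reaching 10 CPM; further members and genes named for context were chosen after their values were seen. A gene of the prenylation list is not reported here. The remaining marker lists summed to 1472, 1113, 777 and 598 CPM for epithelium, 953, 897, 1030 and 1382 for endothelium, 175, 150, 151 and 384 for B and plasma cells, 766, 578, 700 and 1215 for T cells and 165, 246, 76.8 and 246 for NK cells. Alternatives were DESeq2 size factors (version 1.42.0), total counts, upper-quartile factors, prior counts of 0.5 and 10, other filters and thresholds, an exact binomial test of reads and edgeR's exact test with an assumed coefficient of variation of 0.2 or 0.4.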

Additional observations from a re-analysis of the deposited data

Results flagged for a closer look

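*Rab37*, a Rab of secretory granules, went in opposite directions with bleomycin in the 2 genotypes, with counting intervals on either side of 0 and a difference past 2-fold. With PBS it had 27.0 CPM in the WT and 18.5 in the Hps1-/- library, and with bleomycin 23.2 and 44.0. Bleomycin over PBS gave a log2 ratio of -0.22 (-0.31 to -0.13) in WT and 1.25 (1.17 to 1.34) in Hps1-/- libraries, a difference of 1.47 (1.35 to 1.59), or 1.38 with the GC and length correction. With total counts the ratios were -0.48 and 0.61, so that the latter fell short of 2-fold. With 1 library per group the difference was not tested.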

How the results depend on the processing

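No paired analysis was possible because each group had 1 library. For PBS-HPS1 against PBS-WT the count of Rab genes past 2-fold, 0, became 1 with no filter and 1 with at least 10 reads in every library (in both *Rab3b*, under the filter otherwise), and 2 at 1.5-fold. Its median, -0.28, was -0.037 with total counts, -0.11 with upper-quartile factors and -0.19 with BLEO-HPS1 left out of the scaling and filter. For BLEO-HPS1 against BLEO-WT the count, 3, was 5 with total counts, 5 with no filter, 5 with at least 10 reads in every library, 1 after the GC content and length correction, 0 at a log2 ratio of 2, 19 at 1.5-fold, and 0 by edgeR's exact test at either assumed variation. For BLEO-WT against PBS-WT the count, 7, was 1 at a log2 ratio of 2, 11 at 1.5-fold and 0 at an assumed variation of 0.4, and the median, 0.06, was -0.20 with total counts and 0.20 after the correction. For BLEO-HPS1 against PBS-HPS1 the count, 17, was 8 after the correction, 3 at a log2 ratio of 2, 30 at 1.5-fold and 1, *Rab44*, at an assumed variation of 0.4, and the median, 0.14, was -0.54 with total counts. The 9 Rab genes whose bleomycin ratio differed between genotypes were 7 to 13 under the alternatives. After the correction the share of all genes past 2-fold fell as well. It went from 17% to 10.1% in BLEO-HPS1 against BLEO-WT and from 45.9% to 28.2% in BLEO-HPS1 against PBS-HPS1. For the other settings the share of all genes is not given here. Whether those changes in count were particular to Rab genes was therefore not tested. *Rab8b* in BLEO-HPS1 against PBS-HPS1 reversed from -1.24 to 0.016 under the correction. Under total counts *Rab38* fell below the filter. Depth was high, so counting error limits *Rab38*, *Rab36*, *Rab39*, members under 1 CPM and, in the bleomycin libraries, *Rab27b* most, while variation between mice is unknown.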
